A study of Mus musculus with 4 samples.

Results

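The genes of the synaptic vesicle release machinery were followed across subtypes of mouse dorsal root ganglion (DRG) neurons and across their injury states. All gene symbols in the deposited files that began with *Syt* and a digit, *Stx*, *Vamp*, *Cplx*, *Rims*, *Unc13*, *Sv2* or *Stxbp* were taken, together with *Snap25*, *Snap23*, *Snap47*, *Syn1*, *Syn2*, *Syn3* and *Syp*. Of 68 such symbols, 64 had at least 100 unique molecular identifiers (UMIs, each standing for 1 captured mRNA molecule) over the 4 libraries and were kept, out of 31053 genes in the files. The 4 symbols under that limit were *Stx19* and *Cplx3* with 13 UMIs each, *Cplx4* with 10 and *Syt8* with 1, and the kept gene nearest to it was *Syt15* with 200 UMIs. By role, the kept genes were 7 vesicle SNAREs, 17 target SNAREs, 7 syntaxin-binding proteins, 18 calcium sensors and complexins, 8 priming factors and 7 vesicle proteins. Roles were set by symbol. Every synaptotagmin thus counts as a calcium sensor, whether or not it binds calcium, and every RIM, long or short, as a priming factor.

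The libraries were named by sex and surgery (Male-Sham and Female-Sham, Male-CCI and Female-CCI), where CCI is a chronic constriction injury placed on both sciatic nerves and sham is the surgery without it. Every mouse was a C57BL/6 heterozygous for Pirt EGFPf, an allele in which the reading frame of *Pirt*, a gene of peripheral sensory neurons, is replaced by a membrane-bound green fluorescent protein under the gene's own promoter, so sham and CCI mice all lacked 1 *Pirt* copy. Mice were 7 to 8 weeks old, and L4-5 DRGs were taken on day 7 and sorted for GFP+ cells, which enriches for neurons that express *Pirt*. The study states that neurons without *Pirt* are mainly of large diameter, so such neurons may be slightly underrepresented. Each library pooled 20 DRGs of 5 mice, so the design has 2 libraries per surgery and 1 per sex and surgery. Littermates of both sexes received the same surgery, hence litter and surgery cannot be told apart.

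Neurons release transmitter when a vesicle SNARE (a VAMP, also called synaptobrevin) zips together with the target SNAREs syntaxin and SNAP-25 on the plasma membrane. The Munc13 proteins (*Unc13a* to *Unc13d*) and the long forms of the RIM proteins (*Rims1* to *Rims4*) dock and prime the vesicle. Complexins clamp the assembled bundle, and some synaptotagmins sense the calcium that triggers fusion. In DRG neurons this machinery releases glutamate and peptides at the central terminals in the spinal cord, and related SNAREs deliver membrane and receptors along the axon.

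The files held between 4019 and 8035 cells and between 195684124 and 237069156 UMIs per library, and 15715 cells passed the filters, of which 15133 lay in neuronal clusters. Pairs of libraries shared 215 to 513 cell barcodes, and 33 to 395 kept cells per library had a barcode that another file also held. The only non-neuronal cluster held 582 satellite glial cell (SGC)-like cells, and the summed level of 10 SGC markers was 107151 to 135781 CPM (UMIs per 1000000 UMIs of the cells summed) in those cells against at most 1757 CPM in all neurons of a library. Neurons fell into 10 named classes, which are called like a subtype (for example NP1-like) because they were rebuilt from marker genes: non-peptidergic NP1, NP2 and NP3, peptidergic PEP1, PEP2, PEP3/4 and PEP5, large myelinated NF1 and NF2, and the C-fibre low-threshold mechanoreceptors cLTMR. CCI-ind-like clusters, whose cells came mostly from the CCI libraries, were kept apart, and 3 clusters stayed unnamed.

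Injured neurons were recognised by *Sprr1a*, a gene that DRG neurons switch on after axotomy. A neuron was Sprr1a+ when its log-normalised value passed 1. By this limit 1.28% of Male-Sham and 2.67% of Female-Sham neurons were Sprr1a+, against 52.1% of Male-CCI (1467 of 2817) and 49.2% of Female-CCI neurons (1789 of 3637). *Atf3*, an injury gene that was not used for the split, was 2.88 log2 units higher in the Sprr1a+ than in the Sprr1a- neurons of the CCI libraries.

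Of the genes, 6 changed in the same direction in all 4 neuron classes in which injured neurons could be tested: *Snap25*, *Vamp1*, *Sv2b*, *Unc13a* and *Rims3* fell and *Stx11* rose. The reference promoters of these 6 genes are shown because each kept its own direction over the 4 classes. Of all genes tested in all 4 classes, 5.56% fell and 8.03% rose in every one. *Snap25* (chr2:136713453-136782428, plus strand) had no entry in the promoter set. The other 5 windows run from 250 bases before to 50 bases after the start site, taken from RefSeq (build GRCm38.p6), at chr4:120854549-120854848 (plus strand) for *Rims3*, chr6:125215331-125215630 (plus) for *Vamp1*, chr7:75309213-75309512 (minus; the first of 4 entries) for *Sv2b*, chr8:71671708-71672007 (minus) for *Unc13a* and chr10:12964210-12964509 (minus) for *Stx11*. Each is written on its gene's strand, and capitals mark the motif matches given after the sequences.
Rims3: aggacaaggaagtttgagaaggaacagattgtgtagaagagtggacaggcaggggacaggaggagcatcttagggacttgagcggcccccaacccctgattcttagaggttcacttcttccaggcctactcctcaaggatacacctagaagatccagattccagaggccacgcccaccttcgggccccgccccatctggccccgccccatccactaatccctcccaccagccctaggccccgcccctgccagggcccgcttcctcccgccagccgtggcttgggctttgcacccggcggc
Vamp1: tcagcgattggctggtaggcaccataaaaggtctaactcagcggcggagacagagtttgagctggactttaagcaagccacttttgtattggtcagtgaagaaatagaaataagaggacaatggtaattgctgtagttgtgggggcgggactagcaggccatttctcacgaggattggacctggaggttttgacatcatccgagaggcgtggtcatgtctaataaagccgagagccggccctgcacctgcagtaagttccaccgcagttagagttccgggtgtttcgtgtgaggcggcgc
Sv2b: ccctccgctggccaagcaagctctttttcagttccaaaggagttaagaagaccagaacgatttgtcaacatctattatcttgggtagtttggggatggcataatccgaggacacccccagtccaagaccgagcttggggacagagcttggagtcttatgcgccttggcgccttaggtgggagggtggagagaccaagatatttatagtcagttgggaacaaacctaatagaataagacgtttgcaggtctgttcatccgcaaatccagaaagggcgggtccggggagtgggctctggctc
Unc13a: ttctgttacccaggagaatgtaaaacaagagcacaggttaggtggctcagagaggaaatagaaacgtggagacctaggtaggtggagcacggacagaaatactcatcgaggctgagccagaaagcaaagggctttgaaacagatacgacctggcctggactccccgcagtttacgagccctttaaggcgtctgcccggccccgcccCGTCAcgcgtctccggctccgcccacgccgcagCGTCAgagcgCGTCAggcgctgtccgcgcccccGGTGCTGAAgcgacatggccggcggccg
Stx11: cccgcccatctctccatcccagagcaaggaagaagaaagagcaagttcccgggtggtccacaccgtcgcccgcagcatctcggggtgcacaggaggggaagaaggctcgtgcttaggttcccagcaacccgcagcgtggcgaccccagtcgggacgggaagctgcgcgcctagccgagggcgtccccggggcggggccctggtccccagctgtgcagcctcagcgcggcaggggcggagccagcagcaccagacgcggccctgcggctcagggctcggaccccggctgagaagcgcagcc

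Both strands were searched for 3 motifs, none of which overlaps another in these windows: TGANTCA, the AP-1 site bound by Jun and Fos proteins, TGACG, part of the site that ATF and CREB proteins bind, and TTCAGCACC, the core of the element bound by the repressor REST. Among these 5 promoters only that of *Unc13a* held any of them, with 3 copies of TGACG and 1 of TTCAGCACC, all on the opposite strand, where they read CGTCA and GGTGCTGAA. The promoter set matched 48 of the 64 genes with 61 promoters. TGANTCA stood in 2 of the 61 (*Syt2* and *Syt6*) and in 7.81% of all 32851 promoters of the set, TGACG in 14 of the 61 and in 20.8% of all, and TTCAGCACC in 2 of the 61 (*Syn1* and *Unc13a*) and in 0.371% of all. A match is a description of letters in the window and not of a bound site.

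In the sham libraries, the 64 genes differed in how strongly their level depended on the neuron class. Levels are given as CPM of the neurons of a class, with the Male-Sham and Female-Sham values, and are described without a test, since classes were formed from the same cells. They include Sprr1a+ cells, which were 5.68% of Male-Sham and 17.4% of Female-Sham NP1-like neurons and at most 0.192% of any other of these classes. Later comparisons by class use only Sprr1a- sham neurons, so their sham NP1-like values differ from those given here. Of the 64 genes, 12 varied less than 2-fold between the highest and the lowest class mean, and 31 varied more than 10-fold or were at 0 in a class. The highest class was NF1-like for 12 genes, NF2-like for 11 and PEP2-like for 11, and NP2-like for 1.

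Among vesicle SNAREs, *Vamp2*, the main synaptic VAMP of the brain, varied 1.76-fold, from a mean of 456 CPM in NF1-like to 804 CPM in NF2-like neurons. *Vamp1*, the VAMP of motor and many sensory terminals, marked the large myelinated classes, with 284 and 269 CPM in NF1-like and 131 and 111 CPM in NF2-like neurons, and its lowest mean was 17.1 CPM in PEP3/4-like neurons. *Vamp8*, a VAMP of endosomal and secretory granule fusion, marked NP1-like neurons, where its lower library value was 115 CPM against at most 52.3 CPM in any other class. The SGC-like cells exceeded every neuron class for 6 genes, *Snap23*, *Stx17*, *Stxbp3*, *Syn3*, *Vamp3* and *Vamp5*. Of these, *Vamp5* was at 192 and 189 CPM in the SGC-like cells of the sham libraries.

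The target SNARE *Snap25* was highest in NF1-like neurons, with 1921 and 1839 CPM (mean 1880 ± 58.1 SD, n = 2), then in PEP5-like (mean 1339) and NF2-like neurons (mean 1043 ± 11.6), and lowest in NP3-like neurons (mean 254). *Stx1a*, a syntaxin of the plasma membrane, was lowest in NF1-like neurons (7.65 and 7.37 CPM) and highest in NF2-like neurons (79.6 and 84.5 CPM), where it overlapped the NP1-like values.

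Calcium sensors and complexins each had their own pattern over the classes. *Syt2*, a fast sensor paired with *Syt1* in many fast synapses, was at 241 and 213 CPM in NF1-like and at 177 and 166 CPM in NF2-like neurons and under 1.2 CPM in each of NP1-like, NP2-like, NP3-like and cLTMR-like neurons. *Syt1* was highest in PEP5-like neurons (809 and 779 CPM) and lowest in NF2-like neurons (41 and 45.7 CPM). *Syt4*, a synaptotagmin of dense-core vesicles, was highest in PEP3/4-like neurons (1387 and 1334 CPM) and lowest in cLTMR-like neurons (204 and 203 CPM). *Cplx1* was highest in NF1-like neurons (1121 and 1088 CPM), and *Cplx2* in NF2-like (449 and 355 CPM) and then PEP2-like neurons (184 and 165 CPM), with a mean of 4.03 CPM in NP2-like neurons.

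Among priming factors, *Unc13a*, the main Munc13 of excitatory terminals, varied only 1.52-fold over the 10 classes, while *Rims2* reached 237 and 202 CPM in PEP1-like neurons. The SV2 glycoproteins of the vesicle membrane each peaked in another class: *Sv2a* in PEP5-like (170 and 150 CPM), *Sv2b* in NF1-like (217 and 216 CPM) and *Sv2c* in NF2-like neurons (300 and 274 CPM). Their lowest values were 0.711 and 0.282 CPM for *Sv2a* in NP1-like, 0.612 and 0.954 CPM for *Sv2b* in cLTMR-like and 17 and 19.1 CPM for *Sv2c* in PEP2-like neurons. *Syp* (synaptophysin, an abundant membrane protein of the synaptic vesicle) was at 500 and 440 CPM in NF1-like neurons against 29.8 and 32.5 CPM in NP1-like neurons. By the rule that the lower library value of one class be at least 2 times the upper value of every other class, 6 genes marked a single class: *Stxbp6*, *Syt3* and *Vamp1* NF1-like, *Syt13* and *Syt17* PEP2-like, and *Vamp8* NP1-like neurons.

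**Figure D1:**
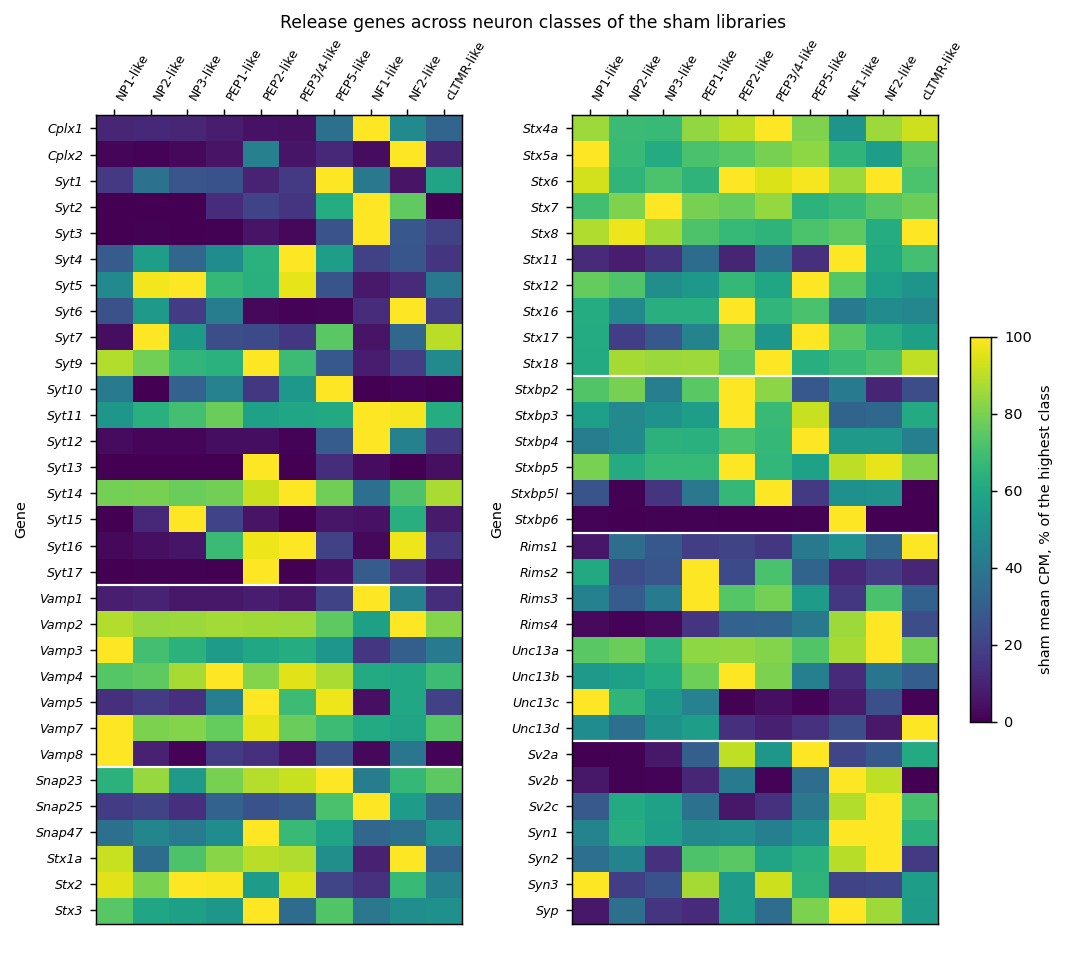
Heat map of the sham libraries for 62 genes of the set, with 1 row per gene, ordered by role, and 1 column per neuron class. Colour gives the mean of the Male-Sham and Female-Sham levels as a percentage of the gene's highest class mean (0 to 100%). *Vamp2* and *Unc13a* stay above 50% in every class, whereas *Syt2*, *Sv2b* and *Vamp1* peak in NF1-like neurons.

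Over all neurons, the first comparison asked how the machinery differed between the CCI and sham libraries. *Snap25* was at 677 and 630 CPM in Male-Sham and Female-Sham and at 394 and 345 CPM in Male-CCI and Female-CCI, and the groups did not overlap. Its fall was 0.77 on the log2 scale (log2 fold change -0.77 ± 0.08 SE, edgeR adjusted p = 0.000266). *Vamp1* fell from 49.2 and 40.5 CPM to 29.5 and 24.5 CPM (-0.68 ± 0.13), with *Sv2b* (-0.66), *Syt2* (-0.60), *Cplx2* (-0.59), *Syp* (-0.51) and *Rims2* (-0.51) beside it. *Stx11*, a syntaxin best known from granule release by killer lymphocytes, rose from 3.8 and 3.95 CPM to 7.61 and 7.31 CPM (1.00 ± 0.07, adjusted p = 7.35e-05), and *Syt4* rose from 690 and 740 CPM to 990 and 986 CPM (0.52 ± 0.05). In all, 6 of the 64 genes rose and 12 fell with an adjusted p under 0.05 and a log2 change over 0.5, which is 28.1% called against 27.8% of all genes tested. Scaled by library totals alone, 5 rose and 17 fell.

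The median log2 change of the set was -0.10 against -0.006 over all genes. The largest falls after adjustment were in low synaptotagmins, *Syt10* (-1.15), *Syt3* (-1.06) and *Syt13* (-0.93), and the largest rises in *Syt17* (1.32), *Syt12* (1.30), *Stx11*, *Syt6* (26.3 and 25.2 to 44.5 and 42 CPM, 0.80) and *Stx5a* (0.63), the syntaxin of the Golgi. *Vamp2* (-0.27), *Syt1* (-0.22) and *Syn1* (-0.09) stayed below the log2 limit. Without the cells whose barcode another library held, *Vamp1* (-0.40), *Syt2* (-0.41), *Syp* (-0.45), *Sv2b* (-0.36) and *Syt4* (0.47) also fell short of it. So did *Cplx2* (-0.48), *Syt2* (-0.46), *Syp* (-0.44) and *Syt4* (0.46) without Male-Sham, *Syt2* (-0.47) and *Syp* (-0.41) without Female-CCI, and *Rims2* (-0.45) without Male-CCI. The mix of neuron classes and injury states differs between these sums. The next comparison separates the injury states without holding the class mix, and those after it are made within classes.

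Within the CCI libraries, Sprr1a+ (injured) neurons were set against Sprr1a- (spared) neurons of the same library. *Snap25* was at 612 and 509 CPM in the spared neurons of Male-CCI and Female-CCI and at 209 and 183 CPM in the injured ones, with no overlap (-1.34 ± 0.03, adjusted p = 4.81e-11). Here 11 of the 64 genes were called higher and 23 lower, 53.1% against 45.6% of all genes tested, and the median was -0.20 against -0.0006. The lower calls alone made up 35.9% of the set and 24.7% of all genes, and the higher calls 17.2% of the set and 20.9% of all genes. Scaled by totals alone, the median of all genes was -0.17, and 7 genes of the set were higher and 25 lower.

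Of 7 vesicle proteins, 4 were lower in injured neurons: *Sv2a* (66.3 and 74.9 to 14.1 and 14.7 CPM, -2.12 ± 0.04), *Sv2b* (39.6 and 31.1 to 8.89 and 6.85 CPM, -1.99), *Syn2* (-0.90) and *Syp* (-0.76). *Sv2c* went the other way (0.59). Among the 18 calcium sensors and complexins, 10 were lower and 3 higher. *Cplx2* was at 41.3 and 39.1 CPM in spared and 9.12 and 10.5 CPM in injured neurons (-1.87), and *Syt2* (-1.64), *Syt9* (-1.24), *Syt7* (-0.96) and *Cplx1* (-0.68) were lower too. *Syt10*, a low synaptotagmin, had 342 UMIs in spared and 8 in injured neurons (2.25 and 2.19 to 0.0568 and 0.0372 CPM, -5.34), and *Syt13* (-3.71), *Syt15* (-3.40) and *Syt3* (-2.57) were the other large falls together with *Stxbp6* (-3.10). *Syt6* (26.1 and 26 to 60.1 and 57.8 CPM, 1.35), *Syt12* (1.70) and *Syt17* (1.26) were higher.

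Priming factors were lower without exception among those called: *Rims2* (100 and 105 to 31.3 and 32.6 CPM, -1.51), *Rims3* (170 and 183 to 64.5 and 69.6 CPM, -1.23), *Unc13a* (-0.99) and *Unc13b* (-0.63), 4 of 8 tested. The target SNAREs divided. *Snap25* was lower, and *Stx11* (1.04), *Stx5a* (1.00), *Stx1a* (43.9 and 44.4 to 68.4 and 73.3 CPM, 0.86) and *Stx16* (0.57) were higher. Of the vesicle SNAREs, *Vamp1* was lower (-1.25) and *Vamp8* (0.80) and *Vamp3* (0.55) were higher, while *Vamp2* was at 616 and 586 CPM in spared and 493 and 442 CPM in injured neurons (-0.19 ± 0.03). *Stxbp5* (tomosyn, which competes with vesicle SNAREs) was higher (0.66). With totals alone, *Stx16* (0.40), *Vamp3* (0.38), *Stxbp5* (0.49) and *Sv2c* (0.41) no longer passed, and without cells of shared barcodes neither did *Cplx1* (-0.45). The class mix of the 2 states also differed, since 957 of the 1467 injured Male-CCI neurons and 1147 of the 1789 injured Female-CCI neurons lay in CCI-ind-like clusters.

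Within neuron classes, injured neurons from CCI mice were set against Sprr1a- neurons from sham mice. NP1-like, PEP5-like, NF1-like and NF2-like neurons had at least 10 injured cells in both CCI libraries, with 98 and 113, 145 and 158, 55 and 33, and 80 and 74 cells in Male-CCI and Female-CCI, against 83 and 71, 295 and 521, 148 and 165, and 77 and 94 sham cells. *Atf3* was 3.08, 4.12, 4.58 and 5.51 log2 units higher in these injured cells. Median UMIs per cell were 51803 and 39316 in sham and 72955.5 and 55434 in injured NP1-like neurons. For PEP5-like neurons they were 27166 and 21867 against 48908 and 39004.5. For NF1-like neurons they were 94104.5 and 66109 against 94244 and 55360, and for NF2-like neurons 84120 and 62126 against 96371 and 56259. CPM are shares of the summed UMIs, so a change in CPM need not equal a change in UMIs per cell. Injured and sham cells lay in different clusters in NP1-like neurons (mainly cluster 23 against 26) and in PEP5-like neurons (cluster 21 against 8, 19 and 24). Of the NF1-like cells, 85 injured and 165 sham cells lay in cluster 20, led by *Pvalb*, *Spp1* and *Car3*, and 3 injured and 148 sham cells in cluster 25, led by *Cadps2*, *Baiap2l1* and *Ntng1*, so changes in NF1-like neurons also compare unequal mixes of both clusters. NF2-like neurons formed a single cluster. The 10 genes that led cluster 21, among them *Ankrd1*, *Arg2* and *Gal*, included no PEP5 marker, and it took its name from 4 markers, so its PEP5-like label is the least certain.

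Of the genes of the set, 11 rose and 10 fell in injured NP1-like neurons (53 tested, 39.6% called against 41.6% of all genes), 14 rose and 23 fell in PEP5-like neurons (61 tested, 60.7% against 46.4%), 9 rose and 20 fell in NF1-like neurons (58 tested, 29 called, against 45.5% of all genes) and 12 rose and 21 fell in NF2-like neurons (59 tested, 55.9% against 42.8%). Lower calls alone made up 18.9% of the set in NP1-like neurons against 20.5% of all genes. For PEP5-like neurons this was 37.7% against 24.0%, for NF1-like neurons 34.5% against 23.7% and for NF2-like neurons 35.6% against 21.9%. The medians were -0.14, -0.27, -0.17 and -0.14, against 0.011, -0.020, -0.060 and -0.014 over all genes tested. When each sum was scaled by its total alone, the median of all genes was -0.32, -0.39 and -0.25 in the PEP5-like, NF1-like and NF2-like comparisons, and the split there became 10 higher and 29 lower, 6 and 27, and 9 and 26. SGC markers also differed between the sums, at 4070 and 4515 CPM in sham and 1375 and 1789 CPM in injured PEP5-like neurons, where 7 of the 10 fell, and their part in the results was not tested. In the other 3 classes their sum lay between 62.5 and 791 CPM in every library, and *Fbln5* was at 0 in the injured NF1-like neurons of Female-CCI. The summed level of 5 markers of myelinating Schwann cells was 38.7 and 41.5 CPM in sham and 234 and 201 CPM in injured NP1-like neurons, with *Pmp2* at 0 in every sum and 1 of the 5, *Mal*, tested and higher there. In NF2-like neurons it was 1.71 and 1.34 against 11.2 and 10.9 CPM, with 1 of the 5 tested and higher. In all neurons it was 19.9 and 17.9 CPM in sham against 41.5 and 39.2 CPM in CCI. There 4 markers were tested, of which 1 was higher and none lower (median log2 change -0.12). In the CCI libraries it was 16.7 and 18.1 CPM in spared against 62.6 and 60 CPM in injured neurons. Of 3 markers tested there, 1 was higher and 1 lower (median 0.10). The part of this sum in the results was not tested.

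Within cluster 20 alone, an alternative chosen after seeing the data, 10 genes of the set rose and 22 fell among 55 tested, 46.7% of all genes being called. *Snap25* (-2.11), *Vamp1* (-2.76), *Sv2b* (-2.18), *Rims3* (-1.48), *Unc13a* (-0.76) and *Stx11* (1.58) were called there in the same direction as in all NF1-like neurons. *Syt1* changed direction and rose (0.76 ± 0.15, adjusted p = 0.0011 by edgeR), *Vamp2* rose (1.05 ± 0.11, adjusted p = 3.09e-06), *Syt9* rose (1.41 ± 0.31) and *Rims2* fell (-0.58). *Syt5* (0.52), *Stx7* (0.47) and *Stx8* (0.44), called in all NF1-like neurons, were not called.

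**Figure D2:**
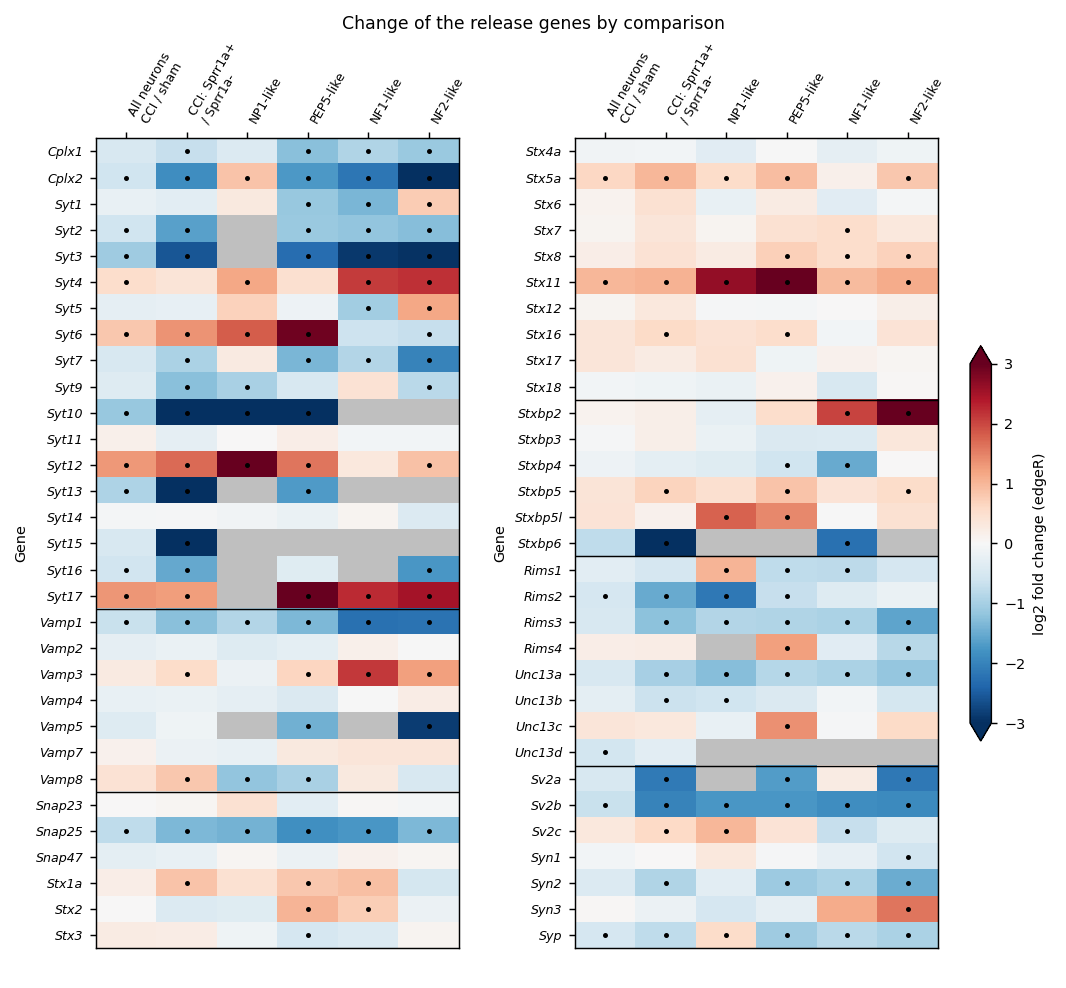
Heat map of log2 fold changes of 62 genes of the set, with 1 row per gene, ordered by role, and 6 columns: CCI against sham in all neurons, Sprr1a+ against Sprr1a- neurons of the CCI libraries, and injured against sham neurons of the NP1-like, PEP5-like, NF1-like and NF2-like classes. Blue is lower and red higher, the scale stops at 3 log2 units each way, dots mark called changes and grey marks genes not tested. *Snap25*, *Vamp1* and *Sv2b* are blue with a dot in every column and *Stx11* is red with a dot in every column.

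The genes that fell in all 4 classes cover a target SNARE, a vesicle SNARE, a vesicle protein, a Munc13 (*Unc13a*) and a short RIM (*Rims3*). The long RIM genes *Rims1* and *Rims2* were not called lower in all 4. Of the 52 genes of the set tested in all 4, these were 5, against 5.56% of all genes tested in all 4. *Snap25* was at 367 and 359 CPM in sham NP1-like neurons (Male-Sham, Female-Sham) and at 137 and 124 CPM in injured ones (Male-CCI, Female-CCI), a change of -1.42 ± 0.10 (adjusted p = 1.49e-19). In PEP5-like neurons *Snap25* went from 1407 and 1270 to 320 and 285 CPM (-1.85 ± 0.08, adjusted p = 8.14e-18). In NF1-like neurons it went from 1921 and 1839 to 424 and 475 CPM (-1.75 ± 0.08, adjusted p = 1.91e-09), and in NF2-like neurons from 1035 and 1051 to 355 and 335 CPM (-1.36 ± 0.09, adjusted p = 8.17e-07). No class had overlapping groups, and after injury the 4 classes lay between 124 and 475 CPM, whereas they had lain between 359 and 1921 CPM in sham. The fall was larger in PEP5-like than in NP1-like neurons (difference -0.49 ± 0.10, adjusted p = 0.000606 by the interaction test) and larger in PEP5-like than in NF2-like neurons (0.49, adjusted p = 0.000429).

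*Vamp1* fell in all 4 classes, and more in NF1-like than in NP1-like neurons. It was at 284 and 269 CPM in sham and 43.3 and 52.8 CPM in injured NF1-like neurons (-2.24 ± 0.11, adjusted p = 2.33e-09), and at 131 and 111 against 23.4 and 20.7 CPM in NF2-like neurons (-2.21 ± 0.14). In PEP5-like neurons the values were 55.2 and 57.3 against 19.8 and 15.8 CPM (-1.35 ± 0.12), and in NP1-like neurons 24.9 and 26.5 against 13.6 and 13.2 CPM (-0.87 ± 0.18). The groups did not overlap in any class. The difference between NF1-like and NP1-like neurons was -1.47 ± 0.19 (adjusted p = 5.69e-07), and between NF2-like and NF1-like neurons it was 0.08 (adjusted p = 0.79). *Vamp2* did not pass in any of the 4 (-0.40, -0.28, 0.16 and -0.02), although it rose within cluster 20 of the NF1-like neurons. In NF1-like neurons *Vamp2* was at 450 and 463 CPM in sham and 432 and 378 CPM in injured cells.

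*Sv2b*, a carrier-like glycoprotein of the vesicle membrane, fell by a like amount in each class. It went from 21.8 and 9.3 to 4.44 and 4.77 CPM in NP1-like (-1.76 ± 0.32), from 79.2 and 76 to 17.7 and 19.8 CPM in PEP5-like (-1.76 ± 0.10), from 217 and 216 to 43.3 and 53.9 CPM in NF1-like (-1.87 ± 0.11) and from 203 and 189 to 43.3 and 45.5 CPM in NF2-like neurons (-1.90 ± 0.10). No pair of classes differed by the interaction test (differences -0.19 to 0.00). *Unc13a* fell from 49 and 49.4 to 19.9 and 19.2 CPM in NP1-like (-1.27 ± 0.14), from 43.2 and 46.3 to 20.8 and 19.8 CPM in PEP5-like (-0.85 ± 0.11), from 50.9 and 55.7 to 19.5 and 27 CPM in NF1-like (-0.94 ± 0.15) and from 62.5 and 59.9 to 25.4 and 20.7 CPM in NF2-like neurons (-1.15 ± 0.14), again with no called difference between classes. *Rims3*, a short RIM without the zinc finger of the long forms, fell by 0.89 to 0.95 log2 units in NP1-like, PEP5-like and NF1-like neurons and from 218 and 212 to 52.8 and 70.6 CPM in NF2-like neurons (-1.58 ± 0.12), where the fall was larger than in each other class (-0.74, -0.67 and -0.62).

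*Stx11* was the only gene of the set that rose in all 4 classes, against 8.03% of all genes tested in all 4. It went from 0.259 and 2.15 to 6.3 and 6.67 CPM in NP1-like (2.64 ± 0.50), from 1.38 and 1.37 to 12.5 and 9.31 CPM in PEP5-like (3.28 ± 0.28), from 9.82 and 10.4 to 14.9 and 17 CPM in NF1-like (0.96 ± 0.19) and from 6.49 and 5.76 to 10.5 and 12.5 CPM in NF2-like neurons (1.12 ± 0.22). The rise was smaller in NF1-like than in PEP5-like neurons (-2.37 ± 0.36, adjusted p = 1.2e-05). Levels after injury lay between 6.3 and 17 CPM in all 4 classes, and no class had overlapping groups.

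**Figure D3:**
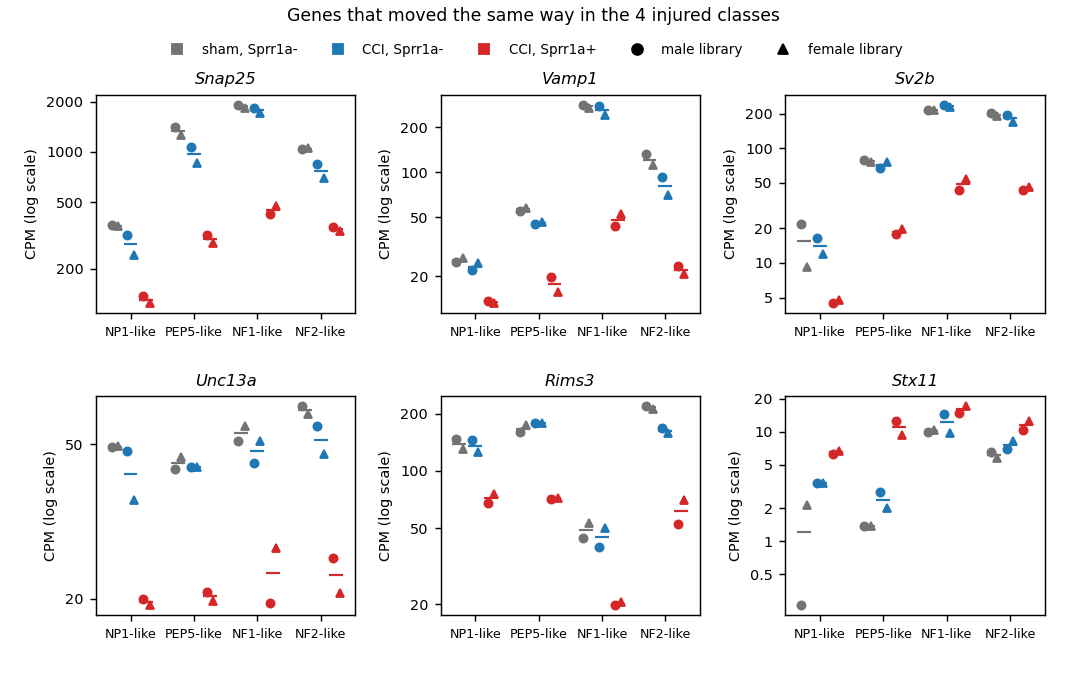
CPM on a log axis of *Snap25*, *Vamp1*, *Sv2b*, *Unc13a*, *Rims3* and *Stx11* in NP1-like, PEP5-like, NF1-like and NF2-like neurons. Grey marks Sprr1a- neurons of sham libraries, blue Sprr1a- neurons and red Sprr1a+ neurons of CCI libraries, circles are male and triangles female libraries, and bars are means of 2 libraries. Red lies under grey in every class of the first 5 panels and over it in the *Stx11* panel.

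Other genes moved in opposite directions between classes. Of the 52 genes of the set tested in all 4, 8 rose in at least 1 class and fell in at least 1 other, and 5.54% of all genes tested in all 4 did so. *Rims4*, tested in 3 classes, made 9. Among the 9 were *Cplx2*, *Rims1*, *Rims4*, *Sv2c*, *Syp*, *Syt1*, *Syt5* and *Syt6*. *Cplx2*, a complexin that clamps SNARE bundles, had the largest fall of the core genes. It was at 449 and 355 CPM in sham and 9.62 and 16.5 CPM in injured NF2-like neurons, a 27.2-fold drop (-4.77 ± 0.21, adjusted p = 1.37e-06), and it also fell in PEP5-like (50.3 and 37.6 to 10.3 and 11.3 CPM, -1.72) and NF1-like neurons (9.9 and 15.9 to 2.44 and 1.76 CPM, -2.17). In NP1-like neurons it rose from 6.23 and 5.01 to 8.6 and 11.3 CPM (0.85 ± 0.28). The NF2-like and NP1-like changes differed by -5.66 ± 0.47 (adjusted p = 1.4e-05). The rise in NP1-like neurons did not hold without Female-CCI (0.63, adjusted p = 0.161) or Female-Sham (0.73, adjusted p = 0.0518).

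*Syp* rose in NP1-like neurons and fell in the other 3 classes. It went from 27.8 and 25.8 to 40.5 and 35 CPM in NP1-like (0.55), from 389 and 366 to 161 and 134 CPM in PEP5-like (-1.06), from 500 and 440 to 219 and 207 CPM in NF1-like (-0.81) and from 428 and 377 to 162 and 194 CPM in NF2-like neurons (-0.95). The PEP5-like and NP1-like changes of *Syp* differed by -1.67 (adjusted p = 1.08e-09). The rise of *Syp* in NP1-like neurons did not hold in several alternatives. It was 0.45 without Male-CCI, 0.37 with doublets kept, and 0.49 with totals alone or with Sprr1a+ above 2, all under the log2 limit, and had an adjusted p of 0.0536 with DESeq2. It also lay just under the limit without cells of shared barcodes.

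Among the sensors, *Syt1* fell from 809 and 779 to 303 and 287 CPM in PEP5-like (-1.13) and from 333 and 304 to 110 and 80.9 CPM in NF1-like neurons (-1.36 ± 0.13). In NF2-like neurons, where it had been lowest, it rose from 41 and 45.7 to 63.3 and 61.5 CPM (0.77 ± 0.12), and the change differed from that in NF1-like neurons by 2.18 ± 0.14 (adjusted p = 3.36e-12). With doublets kept in the clustering, the change in NF2-like neurons was 0.17 (adjusted p = 0.307). Within cluster 20 the NF1-like change of *Syt1* was 0.76 in place of -1.36, and its difference from the NF2-like change was 0.04 (adjusted p = 0.9). *Syt6*, which pairs with related synaptotagmins, rose from 15.3 and 19.7 to 59 and 57.2 CPM in NP1-like (1.81) and from 1.26 and 0.943 to 7.45 and 5.88 CPM in PEP5-like neurons (2.91), and fell from 92.9 and 87.8 to 36.4 and 60.4 CPM in NF2-like neurons (-0.70). *Sv2c* rose in NP1-like (61.2 and 87.3 to 146 and 137 CPM, 1.00) and fell in NF1-like neurons (257 and 252 to 131 and 115 CPM, -0.70). *Syt5* fell in NF1-like (-1.05, but 0.52 within cluster 20) and rose in NF2-like neurons (1.15), *Rims4* rose in PEP5-like (1.22) and fell in NF2-like neurons (-0.84), and *Rims1* rose in NP1-like (1.02) and fell in PEP5-like (-0.76) and NF1-like neurons (-0.79). Leaving out a library ended several of these calls: *Syt6* in NF2-like neurons without Male-CCI (-0.38), *Syt5* in NF1-like neurons without Female-Sham (-0.96), Male-CCI (-1.71) or Female-CCI (-0.81), *Rims4* in NF2-like neurons without Male-Sham (-0.87) or Female-Sham (-0.83), and *Rims1* in NP1-like neurons without Female-Sham (0.51). DESeq2 did not call *Rims1* (1.10, adjusted p = 0.117) or *Cplx2* (0.88, adjusted p = 0.148) in NP1-like neurons. Nor did DESeq2 call *Syt5* in NF1-like (-1.08, adjusted p = 0.164) or *Rims4* in NF2-like neurons (-0.84, adjusted p = 0.135).

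**Figure D4:**
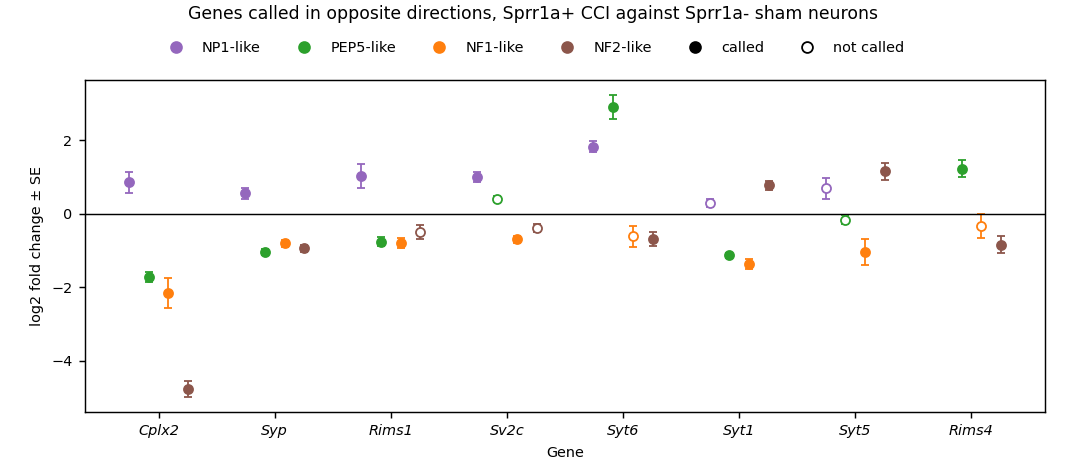
Log2 fold change (points) with its standard error (bars) of 8 of the 9 genes called higher in one class and lower in another, in injured NP1-like, PEP5-like, NF1-like and NF2-like neurons against sham neurons. Filled points are called changes and open points are not. *Cplx2* spans from 0.85 in NP1-like to -4.77 in NF2-like neurons, and *Syt6* from 2.91 in PEP5-like to -0.70 in NF2-like neurons. The NF1-like points of *Syt1* and *Syt5* lie above 0 when cluster 20 alone is used (0.76 and 0.52).

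*Syt4* rose in 3 of the 4 classes. It went from 343 and 381 to 1323 and 1495 CPM in NF2-like (2.19 ± 0.10, adjusted p = 5.1e-08), from 247 and 284 to 924 and 882 CPM in NF1-like (2.09 ± 0.09, adjusted p = 8.56e-10) and from 312 and 391 to 804 and 707 CPM in NP1-like neurons (1.16 ± 0.10). In PEP5-like neurons, where sham cells already stood at 758 and 765 CPM, injured cells were at 866 and 860 CPM (0.48 ± 0.07, under the log2 limit), and the NF2-like and PEP5-like changes differed by 1.72 (adjusted p = 5.78e-13). *Rims2*, which scaffolds calcium channels at the active zone, fell from 174 and 126 to 30.8 and 34.6 CPM in NP1-like neurons (-2.15 ± 0.13) and less in PEP5-like neurons (-0.69), and had changes of -0.38 and -0.19 in NF1-like and NF2-like neurons. The NF2-like and NP1-like changes of *Rims2* differed by 1.91 (adjusted p = 1.28e-09).

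Several core genes fell in PEP5-like, NF1-like and NF2-like neurons and were not called in NP1-like neurons. Among these were *Cplx1* (-1.25, -0.91 and -1.12, against -0.40) and *Syn2* (-1.10, -0.95 and -1.49, against -0.31), along with *Syt7*, the slow sensor of asynchronous release (-1.38, -0.88 and -1.99, against 0.27). *Syt2* fell in the same 3 (-1.10, -1.18 and -1.28) and was too low in NP1-like neurons to test. The change differed from that in NP1-like neurons by the interaction test for *Cplx1* in PEP5-like neurons (-0.90) and for *Syn2* (-1.22) and *Syt7* (-2.32) in NF2-like neurons. Without Male-CCI, *Syt7* (-0.36) no longer passed in NF1-like neurons. *Sv2a* fell from 170 and 151 to 42.9 and 39 CPM in PEP5-like (-1.67) and from 48.7 and 40 to 5.85 and 12.3 CPM in NF2-like neurons (-2.15), and had a change of 0.26 in NF1-like neurons. *Syn1* fell only in NF2-like neurons (-0.57) among the 4, with -0.05 to 0.32 in PEP5-like and NP1-like and -0.25 in NF1-like neurons.

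Among less abundant genes, *Syt3* fell in PEP5-like (-2.28), NF1-like (41.1 and 44 to 3.99 and 5.86 CPM, -2.89 ± 0.20) and NF2-like neurons (11.6 and 11.3 to 0.976 and 1.62 CPM, -2.96 ± 0.33). *Stxbp6* (amisyn), a mark of NF1-like neurons in sham, fell there from 39 and 26.1 to 5.1 and 6.45 CPM (-2.24 ± 0.30), and was at -2.05 with an adjusted p of 0.0851 without Male-CCI. *Syt10* had 181 UMIs in sham and 1 in injured PEP5-like neurons, a ratio of levels of 117 (95% exact interval 20.8 to 4665, counting error only), and 27 against 5 UMIs in NP1-like neurons, where it could not be tested without Male-Sham. *Syt17* rose in PEP5-like (0.344 and 0.257 to 3.94 and 2.29 CPM, 3.65), NF1-like (2.24) and NF2-like neurons (2.48), and *Syt12* in PEP5-like (1.61), NF2-like (0.87) and NP1-like neurons, where it had 1 UMI in sham and 44 in injured cells (ratio of sham to injured level 0.0454, 95% exact interval 0.00112 to 0.266). The *Syt12* call in NF2-like neurons was lost without Male-Sham (0.67), Female-Sham (1.06) or Male-CCI (0.59). *Stxbp2* (of secretory granules) rose in NF1-like (3.09 and 4.17 to 9.76 and 15.2 CPM, 2.02) and NF2-like neurons (0.683 and 1.15 to 5.99 and 6.96 CPM, 3.03). *Vamp3* (cellubrevin, of recycling endosomes) rose in PEP5-like (0.64), NF1-like (2.12) and NF2-like neurons (1.23), and *Vamp8* fell in NP1-like (130 and 128 to 57.2 and 52.4 CPM, -1.18) and PEP5-like neurons (-0.98).

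The remaining calls were spread over the roles. *Stxbp5l*, a second tomosyn, rose in NP1-like (1.77) and PEP5-like neurons (1.44). *Stx1a* rose in PEP5-like (0.82) and NF1-like neurons (0.90) and was not called in NP1-like (0.46) or NF2-like neurons (-0.53), while *Stx5a* rose in NP1-like (0.55), PEP5-like (0.92) and NF2-like neurons (0.82). *Syt9* fell in NP1-like (135 and 148 to 67.9 and 70.6 CPM, -0.97) and NF2-like neurons (-0.82). *Syn3* rose in NF2-like neurons (1.61) and *Vamp5*, which SGC-like cells express strongly, fell there (2.39 and 5.38 to 0.418 and 0.464 CPM, -2.84) and in PEP5-like neurons (-1.44), beside the lower SGC marker sum of the latter. Without the clusters above 1000 CPM of *Fabp7*, an SGC gene, the *Vamp5* change in PEP5-like neurons was -0.08 (adjusted p = 0.873). Some of these calls did not hold without a library: *Stx5a* in NP1-like neurons without Male-Sham (0.44), *Stx1a* in NF1-like neurons without Male-CCI (0.93, adjusted p = 0.052), *Syn3* in NF2-like neurons without Male-Sham (1.40) or Male-CCI (1.17), and *Vamp5* there without Female-Sham (-2.16, adjusted p = 0.06). Of the genes tested in at least 1 class, 13 were called in none, among them *Vamp2*, *Vamp4*, *Vamp7*, *Snap23*, *Snap47*, *Stx12* and the gene of the set with the most UMIs, *Syt11*, and *Syt15* and *Unc13d* were tested in no class. Across the 6 pairs of classes, the interaction test called 13 (NF2-like against NF1-like, 20.3% of all genes) to 31 of 63 genes of the set (NF2-like against NP1-like, 26.7% of all genes). The others were 23 for PEP5-like against NP1-like (25.7% of all genes), 29 for NF1-like against NP1-like (32.9%), 22 for NF1-like against PEP5-like (26.2%) and 24 for NF2-like against PEP5-like (20.6%).

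Neurons of CCI-ind-like clusters, whose subtype of origin the markers did not give, are described without a test. Their levels in Male-CCI and Female-CCI were 159 and 145 CPM for *Snap25*, 13.3 and 12.9 CPM for *Vamp1*, 19.3 and 19.7 CPM for *Unc13a* and 1.93 and 1.63 CPM for *Sv2b*. Each of these lay in or under the range of the injured neurons of the 4 classes. *Syt4* was at 1093 and 1011 CPM, *Vamp2* at 481 and 421 CPM, *Sv2c* at 220 and 209 CPM and *Syt6* at 80.5 and 73 CPM, while *Syt2* was at 1.07 and 1.72 CPM and *Cplx2* at 9.13 and 9.16 CPM.

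Few genes of the set were called in spared neurons. In 10 classes, Sprr1a- neurons from CCI mice were set against Sprr1a- neurons from sham mice, which gave 12 calls in all. In NP1-like neurons 3 of 49 genes were called (background 3.97% of all genes): *Syt4* rose from 312 and 391 to 517 and 500 CPM (0.52, adjusted p = 0.0182), *Syt6* rose from 15.3 and 19.7 to 40.1 and 34.8 CPM (1.10, adjusted p = 0.00383) and *Vamp8* fell from 130 and 128 to 97.1 and 77 CPM (-0.58). All 3 had the direction they had in injured NP1-like neurons, which were compared with the same sham cells. With a stricter split (no *Sprr1a* UMI in Sprr1a- neurons), edgeR called none of the 3. The changes were then 0.24 for *Syt4* (adjusted p = 0.443), 0.17 for *Syt6* (adjusted p = 0.909) and -0.53 for *Vamp8* (adjusted p = 0.145). Without Male-Sham, *Syt4* (0.34) and *Syt6* (0.88) no longer passed, nor did *Vamp8* without Male-Sham (-0.61), Female-Sham (-0.59) or Female-CCI (-0.47). *Stx11* rose in NP2-like (0.768 and 0.817 to 1.94 and 1.97 CPM, 1.27), NP3-like (1.6 and 1.34 to 3.66 and 4.93 CPM, 1.46) and PEP1-like neurons (3.63 and 3.52 to 4.79 and 5.62 CPM, 0.57). DESeq2 called *Stx11* in none of these classes (adjusted p = 0.132 in NP2-like and 0.266 in PEP1-like neurons). Without Male-Sham it no longer passed in any of them (1.22, 1.59 and 0.58). None of the 12 calls passed in every alternative.

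Of the other spared calls, NP2-like neurons had 3 of 55 (background 4.47%), with *Stx17* higher (0.74) and *Stx1a* lower (29.4 and 28.4 to 19.4 and 20.3 CPM) beside *Stx11*. NP3-like neurons had 1 of 56 (background 2.5%), and PEP1-like neurons had 3 of 59 (background 5.18%), with *Syt10* (-0.94) and *Vamp5* (-1.03) lower. The SGC marker sum was 1553 and 1524 CPM in sham and 505 and 663 CPM in CCI PEP1-like neurons, and without the clusters above 1000 CPM of *Fabp7* the *Vamp5* change was 0.03. PEP5-like neurons had 1 of 58 (background 3.8%), *Stxbp5l* (3.78 and 4.37 to 8.37 and 8.76 CPM, 1.03), and NF2-like neurons 1 of 57 (background 1.99%), *Vamp1* (131 and 111 to 92.4 and 70.1 CPM, -0.54). No gene was called by edgeR in PEP2-like (background 1.82%), PEP3/4-like (3.62%), NF1-like (1.12%) or cLTMR-like neurons (1.72%), and DESeq2 called none there. An unadjusted edgeR p under 0.05 was found in these classes for 12 of 55, 24 of 58, 11 of 58 and 17 of 57 genes. Over all genes tested it was found for 2094 of 11200, 3921 of 13411, 1870 of 11977 and 2835 of 12428. *Snap25* in spared PEP5-like neurons stood at 1407 and 1270 CPM in sham and 1070 and 862 CPM in CCI (-0.50 ± 0.09, adjusted p = 0.00468), just short of the log2 limit.

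**Figure D5:**
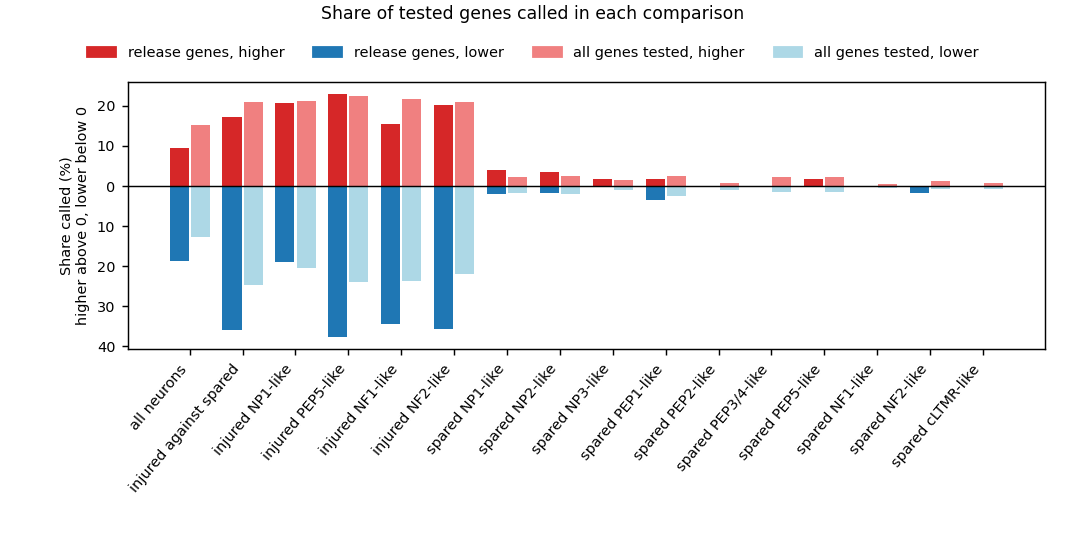
Bars give the percentage of tested genes called higher (above 0) and lower (below 0) in each of 16 comparisons on the x axis, in full colour for the genes of the set and in pale colour for all genes tested. Bars of the set pass those of all genes below 0 in injured PEP5-like, NF1-like and NF2-like neurons (37.7, 34.5 and 35.6% against 24.0, 23.7 and 21.9%), and all bars of spared neurons are short.

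A list of 60 further genes of the pathway, in 6 groups, gives the setting of these changes. In injured NP1-like, PEP5-like, NF1-like and NF2-like neurons, the docking group fell in 5 of 10, 6 of 11, 7 of 12 and 5 of 12 genes tested and rose in 2, 1, 2 and 1. Of all genes tested, 20.5%, 24.0%, 23.7% and 21.9% fell and 21.1%, 22.4%, 21.7% and 20.9% rose. *Rab3a*, the GTPase that tethers vesicles to RIM, fell in all 4 (-0.81, -1.24, -0.91 and -1.19). Of the active zone group 3 of 8, 4 of 9, 5 of 9 and 3 of 9 fell and 1, 2, 3 and 1 rose, and of the further vesicle proteins and transporters 3 of 8, 3 of 9, 3 of 9 and 3 of 9 fell and 0, 0, 0 and 1 rose. Endocytosis genes were divided, with 6, 6, 3 and 3 of 17 higher and 4, 6, 5 and 6 lower. Within this group *Dnm1* and *Amph* fell and *Cltb* and *Snap91* rose in all 4 classes. Dense-core vesicle genes fell in 3, 4, 5 and 5 of 8 and rose in 2, 0, 1 and 0, and of the 2 release calcium channels 1 rose in NF1-like neurons and none was called in the other classes. Within the CCI libraries, *Rph3a* (rabphilin, a Rab3 effector) had one of the largest contrasts of the list, with 122 and 112 CPM in spared and 2.54 and 2.6 CPM in injured neurons (-5.33), where 9 of 13 docking genes were lower and 1 was higher, against 24.7% of all genes lower and 20.9% higher.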

How the data were processed

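Libraries were made with 10x Genomics 3′ chemistry from sorted GFP+ cells. The authors deposited UMI counts per gene and cell as filtered matrices, not normalised. The matrix headers name Cell Ranger 3.0.2, the submitters' processing notes name Cell Ranger 2.1.1 and Seurat, and the genome was mm10. The difference in versions was not resolved. Total UMIs per library and the cells kept are given in the report, and intervals cover counting error only.

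Cells with at least 1500 genes and at most 10% mitochondrial UMIs were kept. Scrublet (scanpy 1.11.5, expected rate 0.1) scored doublets. Its own threshold marked 0.0398% to 1.51% of cells in Male-Sham and Female-Sham and none in the CCI libraries, so it did not work, and the top-scoring cells were removed instead in the number per library that the study gives. Cells were integrated and clustered with Seurat 5.3.0 (3000 variable genes without the genes of the set, 20 components, resolution 0.8). A cluster was named when at least 3 markers of a class were in at least 10% of its cells at 2 times the level elsewhere. UMIs were summed per library, class and injury state (at least 10 cells per sum) and tested with edgeR 4.0.16 in R 4.3.3 (robust quasi-likelihood, TMM factors, filterByExpr), with Benjamini-Hochberg adjustment over all genes tested. A gene was called at an adjusted p under 0.05 and a log2 change over 0.5, and a difference between classes at an adjusted p under 0.05. The comparison within the CCI libraries had library as a block. Printed CPM are relative to the summed UMIs, and log2 changes use the TMM factors. The fit was tested on simulated data. A few genes count in the totals and are not reported here by name.

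With 2 pooled libraries per surgery, p-values measure the spread between these libraries only. The genes, their roles, the pathway list and the named genes (22 core genes, the 5 largest called rises and falls per comparison, and single-class genes) were chosen with earlier results of these data known. Alternatives were DESeq2 1.42.0, library totals, no filter, at least 3000 genes per cell, doublets kept, the genes of the set among the clustering genes, resolutions 0.4 and 1.2, Sprr1a+ above 2 against no *Sprr1a* UMI, sex as a block and leaving out each library. Leaving out cells with shared barcodes and clusters above 1000 CPM of *Fabp7*, and keeping of the NF1-like neurons only cluster 20, was chosen after seeing the data.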

Additional observations from a re-analysis of the deposited data

Results flagged for a closer look

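The change in injured neurons differed between classes in any pair by the interaction test in edgeR for 42 of 63 genes of the set. In single pairs, 20.3% to 32.9% of all genes were called. The share of all genes called in any pair was not computed. Of the core genes and the 5 largest differences each way per pair, 35 genes (19 of them core genes) had such a difference in a pair where the gene was tested in both classes and had more than 3 UMIs in each group. For 33 of these, the largest difference among such pairs is given as the first class minus the second on the log2 scale. Larger differences in other pairs rest on a group with at most 3 UMIs or a class without a test and are not given.

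Between NF2-like and NP1-like neurons the differences were -5.66 for *Cplx2*, 1.91 for *Rims2*, 3.26 for *Stxbp2*, -0.94 for *Syn1*, -1.22 for *Syn2*, 2.104 for *Syn3*, -2.32 for *Syt7* and 0.55 for *Vamp7*. The fall of *Cplx2* in NF2-like neurons stood against a small rise in NP1-like neurons, while *Rims2* fell in NP1-like neurons and was not called in NF2-like neurons.

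Between NF1-like and NP1-like neurons they were -1.92 for *Rims1*, -1.86 for *Stxbp5l*, -1.80 for *Sv2c*, 1.32 for *Syt9*, -1.47 for *Vamp1*, 0.46 for *Vamp2*, 2.15 for *Vamp3* and 1.40 for *Vamp8*. *Vamp1* fell in both of these classes and *Vamp2* was called in neither.

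Between PEP5-like and NP1-like neurons they were -0.90 for *Cplx1*, 1.35 for *Stx2*, 0.43 for *Stx8* and -1.67 for *Syp*. Between NF1-like and PEP5-like neurons they were -2.37 for *Stx11*, which rose in both, -0.80 for *Stx5a* and -1.33 for *Syt12*.

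Between NF2-like and PEP5-like neurons they were -2.09 for *Rims4*, 0.49 for *Snap25*, which fell in both, -1.36 for *Syt16*, 1.72 for *Syt4* and -3.62 for *Syt6*. Between NF2-like and NF1-like neurons they were -1.45 for *Stx1a*, 1.58 for *Stxbp4*, -2.40 for *Sv2a*, 2.18 for *Syt1* and 2.29 for *Syt5*.

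With cluster 20 alone for the NF1-like neurons, 12 of the 16 differences given above that involve them were still called. Those of *Syt1* (0.04), *Syt5* (0.70), *Stxbp4* (1.58) and *Vamp8* (0.45) were not.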

How the results depend on the processing

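The values counted here cover only some genes of the comparisons. Of these values, 2520 kept their direction and their side of the threshold, 99 lost the call, 65 gained one and 2 reversed. Other calls changed outside this count, such as *Syt5* in injured NF1-like neurons, at -1.05 and at 0.52 with cluster 20 alone. The 2 reversed values were those of *Vamp5* and *Syt1*. *Vamp5* in spared PEP1-like neurons was 0.0319 without the clusters above 1000 CPM of *Fabp7* (chosen after seeing the data, adjusted p = 0.979), and *Syt1* in injured NF1-like neurons was 0.76 with cluster 20 alone. Calls that held in every alternative were 9 of 18 in all neurons, 28 of 34 within the CCI libraries and 15 of 21, 29 of 37, 19 of 29 and 24 of 33 for injured NP1-like, PEP5-like, NF1-like and NF2-like neurons, where all 4 classes include *Snap25*, *Vamp1*, *Sv2b*, *Unc13a*, *Rims3* and *Stx11*. The calls in spared neurons, 12 as given above, numbered 4 with DESeq2 and 7 with Sprr1a+ above 2 (NF2-like neurons not run). With Sprr1a+ above 2, every call given above for NP1-like, NP2-like and NP3-like neurons was lost. Those of *Stx11* and *Syt10* in PEP1-like neurons were lost too, so the 7 include other calls. Calls in spared neurons numbered 19 with sex as a block and 5 to 18 when a library was left out, again with other calls included. The cause was not tested. The ranges without a library were 16 to 21 in all neurons and, for the same 4 classes, 20 to 22, 34 to 37, 27 to 30 and 31 to 37, where the lone library was assumed to vary like the others. With sex as a replicate block, calls were 19 in all neurons, 21, 37, 29 and 34 in the 4 injured classes, and without the library block 34 within the CCI libraries. Replicate numbers mark sex only, and the male minus female deviations of sham and CCI correlated with r from -0.004 to 0.275 across genes, which are not independent. Differences between classes called over the 6 pairs numbered 142, 119 without cells of shared barcodes and 149 with cluster 20 alone for NF1-like neurons. Genes near 1 CPM rest on few UMIs in injured NF1-like neurons (55 and 33 cells).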
